A study of Mus musculus with 7 samples.

Results

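Mitosis and spindle genes encode the cyclins, kinases, motors, kinetochore proteins and chromosome-packing proteins that a cell uses to divide. Expression of 55 such genes, chosen as a named list, was followed in nucleus pulposus, the soft centre of the spinal disc, in mice with and without the lactate exporter MCT4. Of the 55, 53 were measured, each by 1 array feature, out of 19505 named genes in all. Ccnb1 and Foxm1 were not analysed here. The list was not drawn from measured values, although earlier results on these arrays were known when it was put together.

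The samples were 3 MCT4KO mice, which carry a global knock-out of MCT4, and 4 WT mice, with 1 Affymetrix whole-transcript array per animal. Nucleus pulposus from the lumbar and caudal discs of 1 animal was pooled into 1 sample, which makes every array a different animal and averages over disc levels. Per the labels, both groups came from heterozygous breeders backcrossed for 10 generations onto C57Bl/6N, while the design text names C57Bl/6N for the knock-outs and C57Bl/6 for the WT animals. The MCT4KO animals were 14 months old and the WT animals 13 months old, so age and genotype cannot be told apart.

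Dividing cells build this machinery anew in each cycle. Its mRNAs rise together in late G2 phase and are cleared as the cell leaves mitosis, so their joint level is widely used as a readout of cycling cells. In resting cells the DREAM repressor complex holds the genes off through a short promoter element, the cell cycle genes homology region (CHR), often accompanied by CCAAT boxes bound by NF-Y. In cycling cells B-MYB and FOXM1 join the same sites and turn the genes on. The adult nucleus pulposus descends from the notochord and is known as a tissue with few dividing cells. In whole tissue, fewer dividing cells and less RNA per dividing cell cannot be told apart.

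The promoter sequences show short elements that many members of the list share, and the part of these elements in the values below was not tested. Below are the stretches from 250 bases before to 30 bases after the RefSeq start (GRCm38.p6) of the 4 members with the smallest p among those with a promoter in the table used. Capitals mark CHR (TTTGAA or TTCGAA, either strand) and CCAAT (either strand).
Mki67, chr7:135716350-135716629, minus strand: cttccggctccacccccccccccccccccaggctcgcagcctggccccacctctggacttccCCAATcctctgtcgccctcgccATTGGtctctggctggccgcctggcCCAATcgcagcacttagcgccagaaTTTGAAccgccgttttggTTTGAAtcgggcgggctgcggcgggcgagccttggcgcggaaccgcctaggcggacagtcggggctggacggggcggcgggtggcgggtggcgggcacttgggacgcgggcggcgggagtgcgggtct
Nek2, chr1:191821223-191821502, plus strand: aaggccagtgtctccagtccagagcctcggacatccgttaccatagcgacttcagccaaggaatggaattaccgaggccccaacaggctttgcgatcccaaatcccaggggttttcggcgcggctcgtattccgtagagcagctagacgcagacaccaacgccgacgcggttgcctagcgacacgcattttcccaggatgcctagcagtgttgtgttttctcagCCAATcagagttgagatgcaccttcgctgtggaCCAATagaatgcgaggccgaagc
Ect2, chr3:27153849-27154128, minus strand: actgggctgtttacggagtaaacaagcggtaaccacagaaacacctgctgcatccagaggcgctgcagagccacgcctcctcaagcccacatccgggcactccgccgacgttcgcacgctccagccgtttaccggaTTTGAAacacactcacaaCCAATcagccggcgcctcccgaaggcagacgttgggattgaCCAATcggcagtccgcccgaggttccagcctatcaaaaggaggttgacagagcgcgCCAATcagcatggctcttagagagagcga
Kif2c, chr4:117178743-117179022, minus strand: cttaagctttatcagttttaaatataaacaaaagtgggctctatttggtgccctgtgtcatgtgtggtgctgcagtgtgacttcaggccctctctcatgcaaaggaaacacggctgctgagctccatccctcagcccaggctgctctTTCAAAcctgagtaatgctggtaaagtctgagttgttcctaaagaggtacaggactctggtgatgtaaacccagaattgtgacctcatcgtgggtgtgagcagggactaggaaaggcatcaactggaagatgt
These stretches hold 2 CHR and 3 CCAAT matches for Mki67, 1 CHR and 3 CCAAT for Ect2, 1 CHR and 0 CCAAT for Kif2c, and 0 CHR and 2 CCAAT for Nek2. Ect2 has 2 start sites in the table, and the window of 1 of them is shown.

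Promoter windows of 300 bases (250 before to 50 after the start) were found for 45 of the 55 members, Ccnb1 included. CHR matched in 34 of the 45, or 75.6%, against 21.7% of the 27025 genes with a window. CCAAT matched in 32, or 71.1%, against 41.1% of all genes, and both together in 29, or 64.4%, against 8.61%. An E2F element, searched as TTTNNCGC on either strand, matched in 5 of the 45, or 11.1%, against 5.93%. Over the 15691 genes with a window that were also on the array, the shares were 19.6% for CHR and 42.2% for CCAAT. They were 8.09% for both together and 7.38% for E2F. Among the matches in member windows, 1 pair of different motifs overlapped. The first base of the CHR matches had a median position of -1 relative to the start, with matches from -234 to 41, and that of the CCAAT matches a median of -67, from -233 to 19. The 45 members had 47 windows, and matches of Ect2 and Prc1 were counted in each of their overlapping windows. A match is a run of letters and not a shown binding site.

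**Figure D1:**
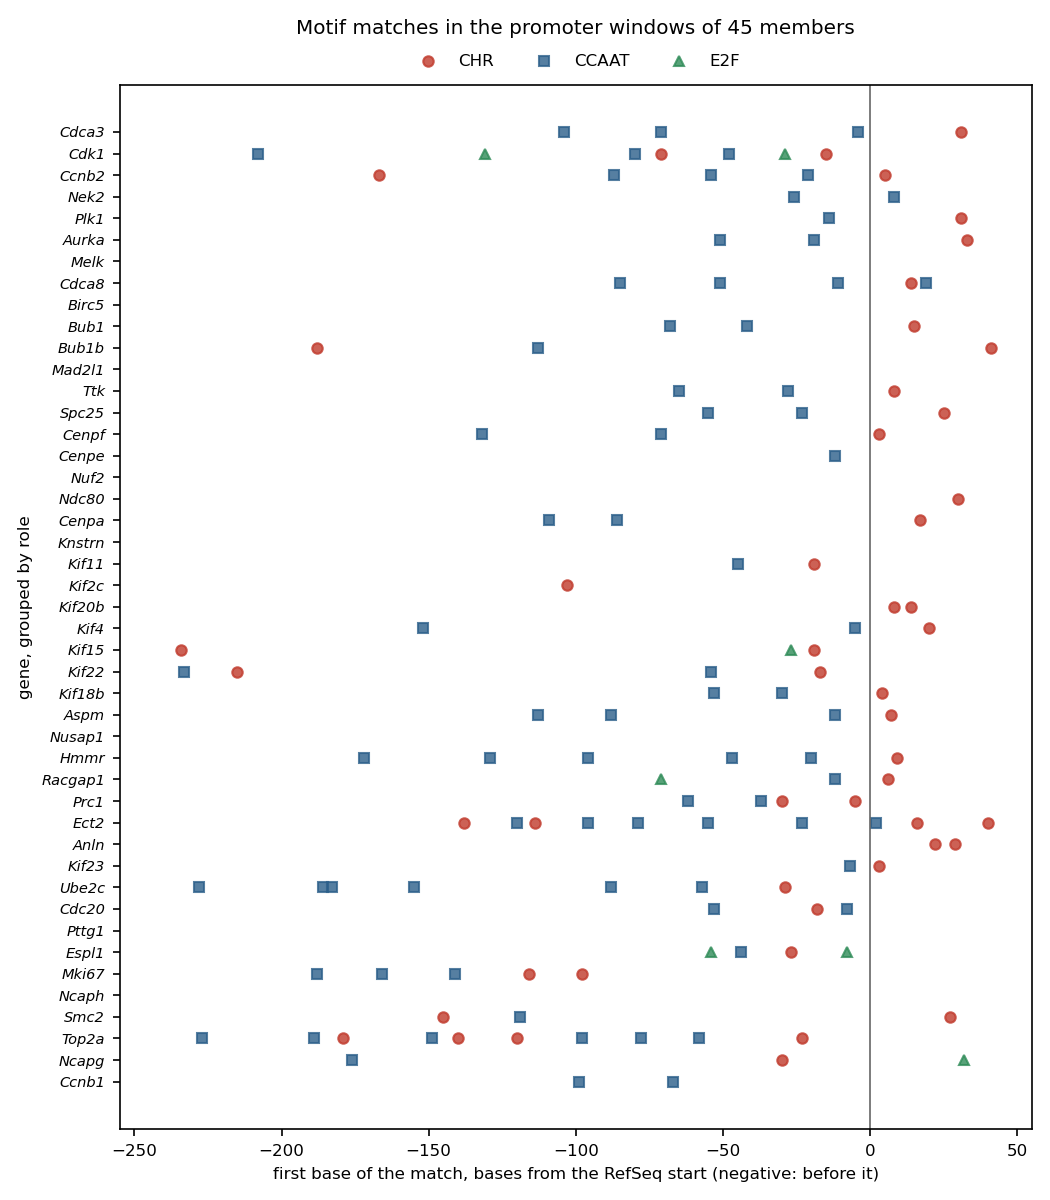
Positions of CHR (red circles), CCAAT (blue squares) and E2F (green triangles) matches in the promoter windows of 45 members, in bases from the RefSeq start, with genes grouped by role. CHR was found in 34 of 45 members and CCAAT in 32, with a median position over all matches of -1 for CHR and -67 for CCAAT.

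The arrays were checked against their labels through Slc16a3, the gene of MCT4. It read 5.02, 4.98 and 4.47 in MCT4KO animals, against 13.55, 13.35, 13.61 and 13.40 in WT animals, on the deposited log2 scale. Each MCT4KO value was under the control median, the median of 5222 negative control features of the same array, so Slc16a3 was at least 179.9-fold lower (limma adjusted p = 6.73e-09; exact two-sided permutation p = 0.0286, the smallest that 35 splits allow). Of 12 nucleus pulposus markers, 7 read above the 95th percentile of the negative controls on all 7 arrays, among them Acan, Sox9, Cd24a and Krt8, while Foxa1 was at background in both groups. In limma over all 19505 genes, 92 genes fell and 23 rose in MCT4KO at an adjusted p under 0.05, or 53 and 26 after quantile normalization. All p-values of single genes below are from this fit, adjusted by Benjamini-Hochberg over all genes.

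Mitosis and spindle genes were lower in MCT4KO nucleus pulposus. Of 53 measured members, 4 fell over all genes tested, Mki67, Stmn1, Nek2 and Pbk, and 0 rose. That is 7.55% of the members, against 0.472% of all genes called lower, 0.118% called higher and 0.59% in either direction. At an unadjusted p under 0.05, 28 members were lower, or 52.8%, and 0 were higher, against 6.9% and 5.76% of all genes. In 23 members every MCT4KO animal read below every WT animal, or 43.4% against 6.37% of all genes, and 0 members had the reverse order, against 5.66%. The change was below 0 for 48 of 53 members, against 47% of all genes, and at -0.5 or lower for 26, or 49.1%, against 5.13%. The median log2 change was -0.46 over the 53 members and 0.02 over all genes.

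Most of these transcripts were dim. In WT, 31 of 53 members read above the control median in all 4 animals, and in MCT4KO 19 of 53 did so in all 3 animals. Both groups were at background, meaning at or below the control median on every array, for 10 members, MCT4KO alone for 8 and WT alone for 1. Only Smc4 and Pttg1 read above the 95th percentile of the controls, which ran from 9.59 to 10.03 over the arrays, and both did so on all 7 arrays. Values below the control median give no size of change. With each such value raised to the control median of its array, the median log2 change over the same 53 members was -0.29, with 10 members flat by construction. In that fit 43 members were tested and 38 were below 0, and 16 rather than 28 were lower at an unadjusted p under 0.05. The matching shares over all genes were not made for this fit. Where a change printed from all 7 animals became over 1.5 times smaller with values raised in this way, both are given below. Genes at background in both groups are left out of this, since they give no size.

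Each MCT4KO animal showed the shift. The mean log2 value over the 53 members was 6.11, 6.05 and 6.17 in MCT4KO 1 to 3, against 6.51, 6.61, 6.77 and 6.79 in WT 1 to 4, without overlap. MCT4KO 1, 2 and 3 read below every WT animal in 37, 36 and 33 of the 53 members, a count that was not made over all genes. All 3 did so in 23 members, or 43.4%, against 6.37% of all genes. Among WT animals, WT 1 gave the lowest WT value in 22 of 53 members and WT 4 the highest in 21, against 23.8% and 22.8% of all genes.

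**Figure D2:**
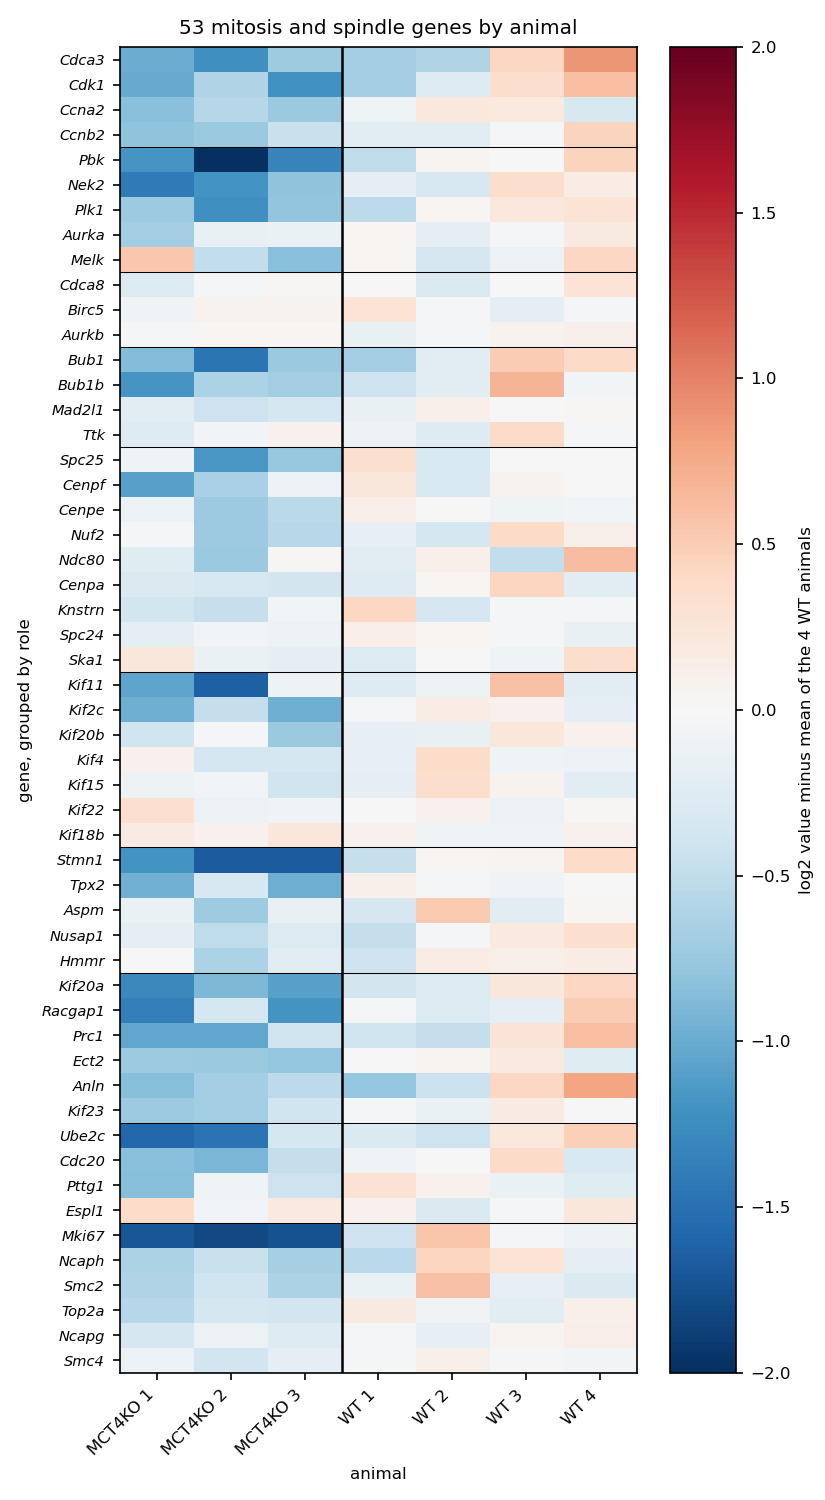
Log2 value of each of 53 members minus its mean over the 4 WT animals, by animal and grouped by role, with blue for lower and red for higher and MCT4KO left of the black line. The MCT4KO columns are blue in most rows. MCT4KO 1, 2 and 3 lie below the WT mean in 46, 50 and 46 of 53 members, a count not made over all genes.

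Neutrophil and marrow markers also had a median change below 0, at -0.99, or -0.65 with values raised, so their values stand beside this result. MCT4KO alone was at background for 8 of them and both groups for 3. Of 16 such markers, 14 were below 0, 0 passed the test and 4 were lower at an unadjusted p under 0.05. Over all genes 47% were below 0, 0.59% passed, and 6.9% were lower and 5.76% higher at that p. These shares also stand beside the marker counts below. Their list mean was 5.42, 4.98 and 4.91 in MCT4KO 1 to 3, against 6.83, 8.58, 5.46 and 5.72 in WT 1 to 4. S100a8, a calprotectin subunit named after its values were seen as the marker with the smallest p, read 5.56, 4.31 and 5.57 in MCT4KO animals, against 10.41, 13.04, 7.71 and 7.86 in WT animals. All 4 WT values lay above the 3 MCT4KO values, also in WT 3 and WT 4, and MCT4KO was at background. Without WT 1 and WT 2 the median change of the 53 mitosis genes was -0.58, with 49 of them below 0 and 1, Mki67, called. The marker list mean was still higher in WT 3 and WT 4 than in every MCT4KO animal. In WT 3 the margin was narrow, 5.46 against 5.42 in MCT4KO 1. In 4 of the 16 markers every MCT4KO animal read below every WT animal, against 6.37% of all genes. The part of these cells in the result was not tested.

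Markers of other cell types ranged from background to bright. All 7 measured endothelial markers and all 7 measured B-lineage marrow markers were at background in both groups. Of 6 erythroid markers 5 had a change below 0, with 0 called and 1 lower at an unadjusted p under 0.05, and their list means were 5.59 to 5.83 in MCT4KO animals and 5.67 to 6.60 in WT animals. That 1 was Alas2, an enzyme of haem synthesis in red cells, at 5.39, 5.49 and 5.32 in MCT4KO animals, against 6.11, 7.70, 5.88 and 5.66 in WT animals. It was at background in MCT4KO, and 2 of 4 WT values lay above the control median, so no fold is given (adjusted p = 0.385). With values raised its change was -0.48. Macrophage markers had a median change of 0.06 over 8 members, or -0.01 with values raised. Of these 0 were called and 0 had an unadjusted p under 0.05.

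Skeletal markers differed between animals as well. Of 9 end plate and hyaline cartilage markers 1 fell, Snorc, a proteoglycan of cartilage, by 1.53 ± 0.227 on the log2 scale (SE; adjusted p = 0.0265). Ihh, Matn1, Matn3 and Epyc were at background in both groups, whereas Pth1r and Cytl1 read above the 95th percentile of the controls on all 7 arrays. MCT4KO 1 stood apart, with a list mean of 9.27, against 8.19 and 7.76 in MCT4KO 2 and 3 and 8.22 to 8.70 in WT animals. Col10a1, the collagen of hypertrophic cartilage, read 12.11, 9.02 and 7.18 in MCT4KO animals, against 7.02, 8.50, 7.16 and 7.83 in WT animals, and Chad, a cartilage matrix protein, read 14.29, 9.93 and 8.56 in MCT4KO animals, against 10.54, 13.26, 11.12 and 11.87 in WT animals. Both had overlapping groups, with changes of 1.81 ± 0.92 (SE; adjusted p = 0.452) and -0.77 ± 1.16 (SE; adjusted p = 0.819). Without MCT4KO 1 the median change of the 53 mitosis genes was -0.55 and 2 were called.

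Of the 12 nucleus pulposus markers 9 had a change above 0, with 0 called and 1 higher at an unadjusted p under 0.05. That 1 was Col2a1, the main collagen of cartilage and nucleus pulposus, at 10.08, 9.22 and 8.85 in MCT4KO animals, against 8.29, 8.10, 7.58 and 8.30 in WT animals. Every MCT4KO animal lay above every WT animal, with a change of 1.32 ± 0.286 (SE; adjusted p = 0.0884). Of 7 annulus fibrosus and tendon markers 0 were called and 1, Thbs4, was higher at an unadjusted p under 0.05. Thbs4, a matrix protein of tendon, had a change of 0.55 ± 0.181 (SE; adjusted p = 0.266) and groups that did not overlap. Of its WT values 1 of 4 lay above the control median, and with values raised the change was 0.36. The part of these cell types in the mitosis result was not tested. These markers were named after their values were seen.

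**Figure D3:**
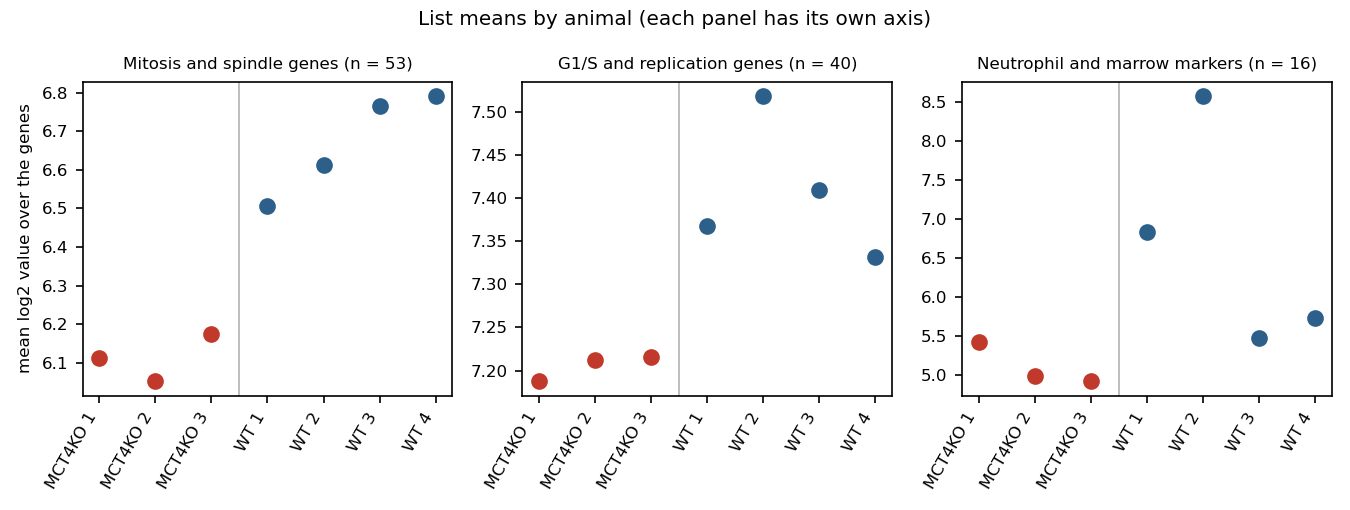
Mean log2 value over the 53 mitosis and spindle genes, 40 G1/S and replication genes and 16 neutrophil and marrow markers in each animal, with MCT4KO in red and WT in blue and a separate axis for each panel. MCT4KO animals lie below WT animals in each panel.

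Chromosome structure genes held the member with the smallest p. Mki67 encodes Ki-67, the coat protein of mitotic chromosomes and the standard marker of cycling cells, and read 7.12, 7.03 and 7.09 in MCT4KO animals, against 8.41, 9.38, 8.81 and 8.73 in WT animals. The 3 MCT4KO values lay within 0.1 of each other and far below the lowest WT animal, with WT 2 highest. Its mean was 7.08 ± 0.0477 in MCT4KO (SD, n = 3) and 8.83 ± 0.403 in WT (SD, n = 4), a fall of 3.37-fold on the deposited scale, -1.75 ± 0.207 (SE; adjusted p = 0.0148). Top2a, the topoisomerase that untangles sister chromatids, read 5.93, 6.15 and 6.11 in MCT4KO animals, against 6.68, 6.43, 6.28 and 6.61 in WT animals. Its groups did not overlap, but the change of -0.43 ± 0.144 (SE; adjusted p = 0.269) did not pass.

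The condensin subunits pack chromatin into rod-shaped chromosomes. Smc2, a core ATPase subunit, had a change of -0.54 ± 0.21 (SE; adjusted p = 0.331) and groups that did not overlap. Its partner Smc4 read 13.66, 13.40 and 13.60 in MCT4KO animals, against 13.73, 13.88, 13.76 and 13.72 in WT animals. These values lay well above the negative controls and did not overlap, yet the difference was small, -0.22 ± 0.128 (SE; adjusted p = 0.496). The condensin I subunits Ncaph and Ncapg were at background in both groups. In this group of 6 genes, 1 fell, 4 were lower at an unadjusted p under 0.05 and 6 were below 0.

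Of the 4 measured mitotic entry genes 0 passed the test over all genes, while all 4 were lower at an unadjusted p under 0.05. Of these Cdk1 was at background in both groups and Ccna2 and Cdca3 in MCT4KO, and the median change of -0.83 was -0.28 with values raised to the control median. Ccna2, cyclin A2, which drives S phase and entry into mitosis, read 5.11, 5.38 and 5.21 in MCT4KO animals, against 5.86, 6.17, 6.14 and 5.63 in WT animals. Ccnb2, a B-type cyclin, read 5.87, 5.93 and 6.23 in MCT4KO animals, against 6.45, 6.46, 6.64 and 7.11 in WT animals. In both genes every MCT4KO animal lay below every WT animal, and Ccnb2 had a change of -0.66 ± 0.187 (SE; adjusted p = 0.192). The change of Ccna2, -0.71 (adjusted p = 0.109), gives no size, since MCT4KO was at background, and with values raised it was -0.09 (adjusted p = 0.755).

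Cdk1, the kinase partner of these cyclins, read 3.89, 4.29 and 3.69 in MCT4KO animals, against 4.20, 4.64, 5.25 and 5.504 in WT animals. All 7 values lay below the control median, so its change of -0.94 gives no size. Cdca3, which promotes mitotic entry by targeting the inhibitor WEE1 for degradation, was at background in MCT4KO. Of its WT values 2 of 4 lay above the control median, so no fold is given (adjusted p = 0.307). The means were 5.34 ± 0.253 in MCT4KO (SD, n = 3) and 6.32 ± 0.769 in WT (SD, n = 4). With values raised its change was -0.47 (adjusted p = 0.505).

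Other mitotic kinases included 2 of the 4 genes that fell. Pbk, a serine-threonine kinase of mitotic cells also called TOPK, read 6.06, 5.01 and 5.91 in MCT4KO animals, against 6.73, 7.30, 7.26 and 7.69 in WT animals. Every WT animal was above the control median and 1 of 3 MCT4KO animals was, with a change of -1.58 ± 0.283 (SE; adjusted p = 0.0477). Nek2, a kinase that separates centrosomes, read 4.62, 4.83 and 5.21 in MCT4KO animals, against 5.85, 5.70, 6.37 and 6.18 in WT animals. Its groups did not overlap and the change was -1.14 ± 0.203 (SE; adjusted p = 0.0477), but all MCT4KO values and 2 WT values lay below the control median. No fold is therefore given for Nek2, and with values raised to the control median its change was -0.13 (adjusted p = 0.704).

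Plk1, the polo kinase of spindle formation and mitotic exit, read 6.35, 5.86 and 6.29 in MCT4KO animals, against 6.56, 7.12, 7.28 and 7.34 in WT animals. The groups did not overlap, with a change of -0.91 ± 0.213 (SE; adjusted p = 0.113). Aurka, the centrosomal Aurora kinase, had a change of -0.33 ± 0.172 (SE; adjusted p = 0.465) with overlapping groups. Melk was at background in both groups.

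The midzone and cytokinesis group, which builds the cleavage furrow and completes division, had changes below 0 in 6 of 6 members. Of these 0 passed the test, 5 had an unadjusted p under 0.05 and 4 had groups that did not overlap, with a median change of -0.79. Ect2, the exchange factor that activates RhoA at the furrow, read 6.35, 6.34 and 6.31 in MCT4KO animals, against 7.07, 7.14, 7.28 and 6.83 in WT animals. The MCT4KO animals were nearly alike and each lay below every WT animal, with a change of -0.75 ± 0.14 (SE; adjusted p = 0.0532) just outside the threshold. Kif20a, a kinesin of the central spindle, read 5.58, 5.97 and 5.79 in MCT4KO animals, against 6.51, 6.60, 7.10 and 7.29 in WT animals. Its change was -1.09 ± 0.209 (SE; adjusted p = 0.0573), also just outside, and 1 of 3 MCT4KO values lay above the control median.

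Kif23 and Racgap1 form the centralspindlin complex, which recruits Ect2. Kif23 read 7.16, 7.19 and 7.49 in MCT4KO animals, against 7.87, 7.75, 8.05 and 7.89 in WT animals. Racgap1 read 6.51, 7.52 and 6.68 in MCT4KO animals, against 7.84, 7.61, 7.68 and 8.40 in WT animals. Neither gene's groups overlapped, although MCT4KO 2 came close to WT for Racgap1, and the changes were -0.61 ± 0.141 (SE; adjusted p = 0.109) and -0.98 ± 0.268 (SE; adjusted p = 0.178). Prc1, which bundles midzone microtubules, read 4.84, 4.85 and 5.48 in MCT4KO animals, against 5.49, 5.41, 6.13 and 6.49 in WT animals. MCT4KO 3 reached the lower WT animals, MCT4KO was at background, and the change of -0.82 gives no size (adjusted p = 0.278). With values raised the change was -0.14. Anln, the furrow scaffold anillin, had a change of -0.69 that did not pass (adjusted p = 0.434), and WT 1 read 6.91, inside the MCT4KO range.

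Spindle assembly genes held 1 gene that fell, Stmn1. It encodes stathmin, which destabilises microtubules and is switched off by phosphorylation at mitosis, and it read 7.44, 6.98 and 6.98 in MCT4KO animals, against 8.18, 8.67, 8.70 and 9.01 in WT animals. Every value was above the control median and the groups were clearly apart, with MCT4KO 1 the highest knockout. The means were 7.13 ± 0.265 in MCT4KO (SD, n = 3) and 8.64 ± 0.345 in WT (SD, n = 4), a fall of 2.84-fold and a log2 change of -1.51 ± 0.208 (SE; adjusted p = 0.0197). Tpx2, which activates Aurora A on the spindle, read 5.75, 6.39 and 5.73 in MCT4KO animals, against 6.81, 6.68, 6.65 and 6.71 in WT animals. The WT values were tight and MCT4KO 2 came closest to them, with a change of -0.75 ± 0.177 (SE; adjusted p = 0.114).

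Nusap1, a microtubule-bundling protein, read 8.34, 8.02 and 8.26 in MCT4KO animals, against 8.05, 8.49, 8.72 and 8.86 in WT animals. Its groups overlapped, with a change of -0.32 ± 0.198 (SE; adjusted p = 0.517). Hmmr, a spindle and hyaluronan-binding protein, had a change of -0.27, or -0.14 with values raised, and Aspm, a spindle pole protein, was at background in both groups.

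**Figure D4:**
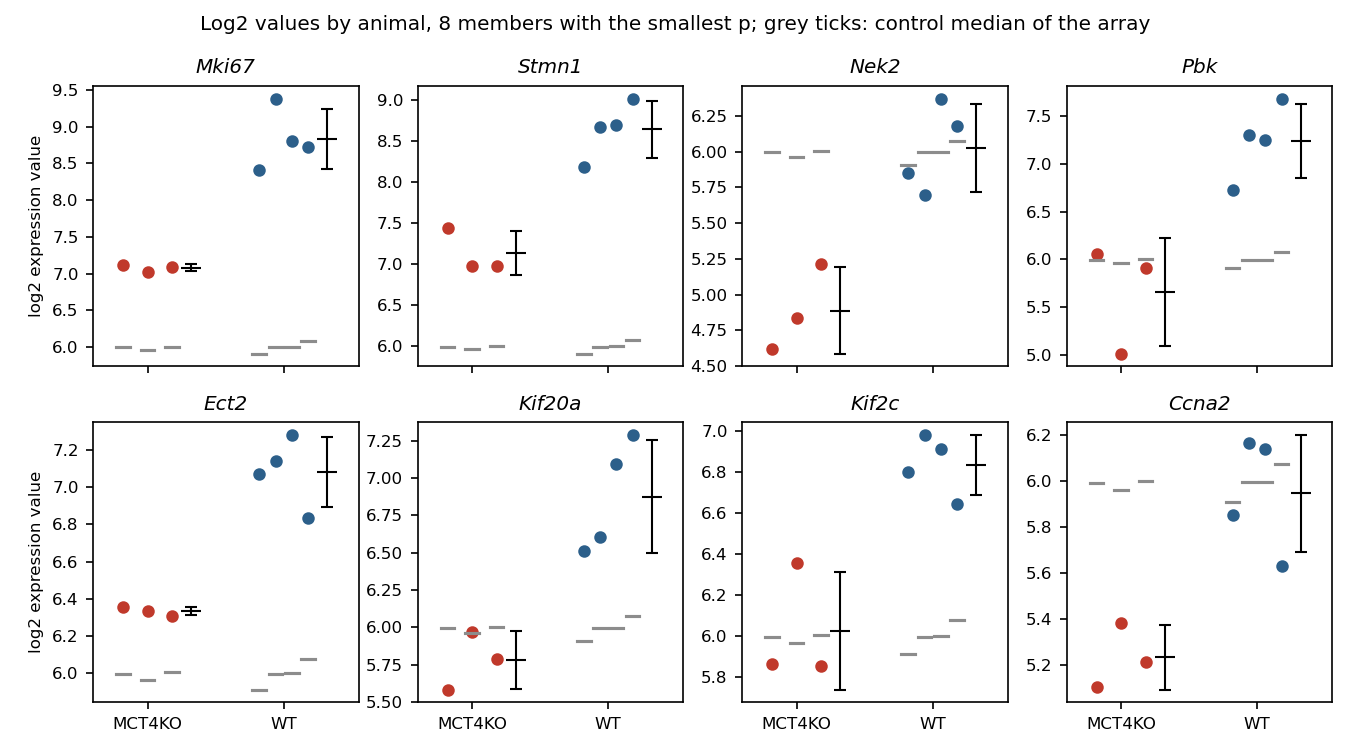
Log2 values in each animal of the 8 members with the smallest p, MCT4KO (red) left of WT (blue), with the mean and SD in black and the control median of each array as a grey tick. In all 8 the groups do not overlap, and the MCT4KO values of Nek2 and Ccna2 lie below the control median.

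Checkpoint and anaphase genes time the separation of sister chromatids. Bub1, a kinetochore kinase of the spindle checkpoint, read 5.26, 4.67 and 5.38 in MCT4KO animals, against 5.43, 5.91, 6.63 and 6.51 in WT animals. Bub1b, which encodes the checkpoint protein BUBR1, read 5.27, 5.81 and 5.76 in MCT4KO animals, against 6.04, 6.24, 7.12 and 6.40 in WT animals. Both were at background in MCT4KO with groups that did not overlap, with adjusted p of 0.201 and 0.22. Bub1b was at least 1.38-fold lower. For Bub1 2 of 4 WT values lay above the control median, so no fold is given. With values raised the changes were -0.28 for Bub1 (adjusted p = 0.544) and -0.47 for Bub1b (adjusted p = 0.406). Mad2l1, the checkpoint protein MAD2, read 8.15, 7.95 and 8.02 in MCT4KO animals, against 8.23, 8.48, 8.38 and 8.40 in WT animals. Every value was above the control median and the groups did not overlap, with a change of -0.33 ± 0.128 (SE; adjusted p = 0.331). Ttk, the checkpoint kinase MPS1, was at background in both groups.

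Cdc20, the activator of the anaphase-promoting complex, read 4.80, 4.73 and 5.16 in MCT4KO animals, against 5.55, 5.65, 6.03 and 5.33 in WT animals. MCT4KO was at background and only WT 3, 1 of 4 WT animals, lay above the control median, so no fold is given (adjusted p = 0.141). Ube2c, the ubiquitin-conjugating enzyme of that complex, read 4.99, 5.09 and 6.22 in MCT4KO animals, against 6.28, 6.15, 6.78 and 7.04 in WT animals. MCT4KO 3 overlapped with WT, and the change was -1.13 ± 0.318 (SE; adjusted p = 0.188). In MCT4KO 1 of 3 values of Ube2c lay above the control median, and with values raised the change was -0.50 (adjusted p = 0.346). Pttg1, securin, which restrains separase, read 11.92, 12.69 and 12.37 in MCT4KO animals, against 13.07, 12.86, 12.65 and 12.53 in WT animals. Its groups overlapped, with a change of -0.45 ± 0.204 (SE; adjusted p = 0.406).

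Centromere and kinetochore genes were below 0 in 9 of 9 members, with a median change of -0.33. None passed the test, and 3 had an unadjusted p under 0.05, Cenpe (-0.46), Spc25 (-0.67) and Cenpf, which was at background in both groups and gives no size. Cenpe is a kinesin that aligns chromosomes, and its groups did not overlap, as was true of Cenpa, the centromeric histone (-0.33, adjusted p = 0.474). Of the NDC80 complex, which grips microtubules, Nuf2 had a change of -0.44 with overlapping groups, and Ndc80 and Spc24 gave no size, Ndc80 at background in both groups and Spc24 in MCT4KO. Knstrn had a change of -0.29 with overlapping groups, and Ska1 was at background in both groups.

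Kinesin motors of the spindle had a median change of -0.21 over 7 members, with 0 called and 2 lower at an unadjusted p under 0.05. Kif2c, which depolymerises microtubules at centromeres to correct attachments, read 5.86, 6.36 and 5.85 in MCT4KO animals, against 6.80, 6.98, 6.91 and 6.64 in WT animals. Its groups did not overlap, with a change of -0.81 ± 0.165 (SE; adjusted p = 0.0704). Kif11, the motor that pushes spindle poles apart, had a change of -0.93 ± 0.337 (SE; adjusted p = 0.304), and MCT4KO 3, at 6.56, lay among the WT animals. The other 2 MCT4KO values of Kif11 lay below the control median, and with values raised its change was -0.49 (adjusted p = 0.395). Kif20b and the chromokinesin Kif4 had changes of -0.39 and -0.21 with overlapping groups, and Kif15 was at background in both groups.

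Members with a change above 0 numbered 5, and all had small changes that did not pass. The chromosomal passenger complex corrects kinetochore attachments and guides cytokinesis. Its kinase Aurkb read 6.13, 6.20 and 6.20 in MCT4KO animals, against 6.02, 6.14, 6.22 and 6.25 in WT animals. Its survivin subunit Birc5 read 6.10, 6.25 and 6.25 in MCT4KO animals, against 6.46, 6.14, 5.99 and 6.14 in WT animals. Both sets of values overlapped near the control median, with 95% intervals of the log2 change of -0.26 to 0.30 and -0.31 to 0.34. The third measured subunit, Cdca8 (borealin), had a change of -0.10 with an interval of -0.45 to 0.26.

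The remaining 3 of the 5 were motors or a protease. Espl1, separase, which cuts cohesin at anaphase, read 6.22, 5.80 and 6.05 in MCT4KO animals, against 5.93, 5.56, 5.83 and 6.07 in WT animals, with an interval of -0.19 to 0.54 and a change of 0.08 with values raised. Kif18b, a kinesin acting on astral microtubules, read 7.001, 6.91 and 7.06 in MCT4KO animals, against 6.92, 6.75, 6.74 and 6.91 in WT animals, with an interval of -0.12 to 0.44. Kif22, a chromokinesin, read 6.23, 5.77 and 5.82 in MCT4KO animals, against 5.89, 5.97, 5.76 and 5.91 in WT animals. All 3 had overlapping groups, and WT was at background for Kif22.

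**Figure D5:**
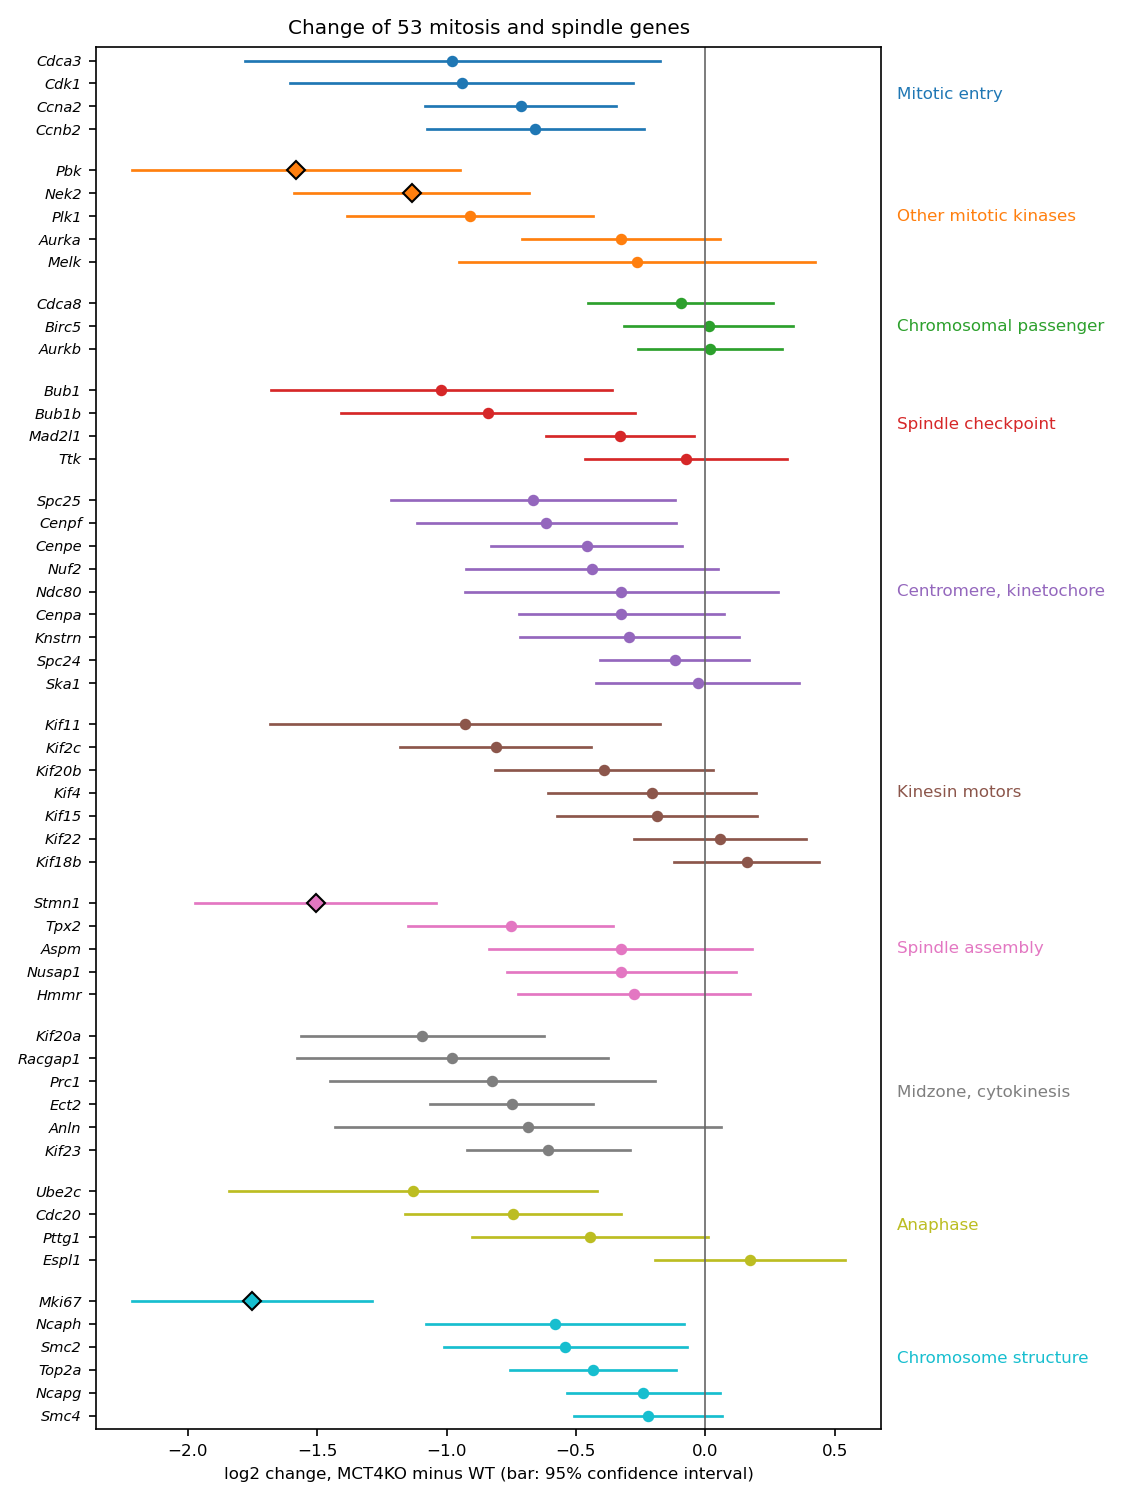
Log2 change (MCT4KO minus WT) of 53 members with its 95% confidence interval from limma, grouped by role, with diamonds for the 4 genes past an adjusted p of 0.05. Points lie left of 0 for 48 of 53 genes, the 10 genes at background in both groups and the 8 in MCT4KO alone included, whose sizes are not measured.

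Other genes of the division cycle were taken from separate lists. Of 53 further mitosis genes 1 fell, Cenpm, a kinetochore protein. At an unadjusted p under 0.05 there were 12 lower and 0 higher, and 45 were below 0. Their median change was -0.21, or -0.02 with values raised to the control median, and 20 of the 53 were at background in both groups. Over all genes 0.472% were called lower, 6.9% were lower and 5.76% higher at that p, and 47% were below 0. These shares also stand beside the counts of the lists below. Cenpm read 5.60, 6.09 and 5.77 in MCT4KO animals, against 7.04, 6.87, 6.69 and 6.66 in WT animals, with a change of -0.996 ± 0.162 (SE; adjusted p = 0.0379). Hjurp, the chaperone that deposits Cenpa at centromeres, read 11.44, 11.55 and 11.28 in MCT4KO animals, against 12.16, 11.91, 12.30 and 12.06 in WT animals. These values lay above the control median by a wide margin and did not overlap, with a change of -0.69 ± 0.142 (SE; adjusted p = 0.075). The next in order of p were Iqgap3, a scaffold protein, at background in MCT4KO (adjusted p = 0.143) and at -0.10 with values raised, and Cep55, of the midbody, at -0.77 (adjusted p = 0.23).

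Among 24 measured DREAM, E2F and NF-Y genes, the regulators of this programme, 1 fell. At an unadjusted p under 0.05, 2 were lower, near the 6.9% share of all genes. Their median change was -0.07, or -0.04 with values raised. The one that fell was E2f8, a repressor of the E2F family, which read 5.61, 5.82 and 6.04 in MCT4KO animals, against 6.53, 7.06, 7.05 and 6.63 in WT animals. Only MCT4KO 3, 1 of 3 MCT4KO animals, lay above the control median, and the change was -0.99 ± 0.18 (SE; adjusted p = 0.0493). Rbl1, the pocket protein p107, had a change of -0.78 ± 0.187 (SE; adjusted p = 0.121), while E2f2 was at background in MCT4KO and E2f1 in both groups, so neither gives a size.

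G1/S and replication genes had a median change of -0.18 over 40 measured members, or -0.07 with values raised. Here 1 fell. An unadjusted p under 0.05 was found for 7 lower genes and 1 higher gene, against 6.9% and 5.76% of all genes. Rrm2, the ribonucleotide reductase subunit that supplies deoxynucleotides, read 7.24, 6.71 and 7.07 in MCT4KO animals, against 7.75, 8.84, 8.66 and 8.94 in WT animals, with a change of -1.54 ± 0.275 (SE; adjusted p = 0.0477). Prim1, a DNA primase, had a change of -0.95 ± 0.274 (SE; adjusted p = 0.198), Lig1, the replicative DNA ligase, -0.39 ± 0.126 (SE; adjusted p = 0.264), and Cdc7, an origin-firing kinase, -0.64 ± 0.216 (SE; adjusted p = 0.275). Whether the mitosis genes differed more than the replication genes was not tested.

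Some of this machinery also works outside division. The 16 anaphase-promoting complex genes were all below 0, against 47% of all genes, with a median change of -0.25 and 0 called. At an unadjusted p under 0.05, 3 were lower, Cdc16 (-0.77), Ube2d1 (-0.60) and Anapc5 (-0.29), against 6.9% of all genes. MCT4KO 1 had the lowest mean of this list, 10.72, against 11.03 and 11.04 in MCT4KO 2 and 3 and 11.10 to 11.30 in WT animals. The 10 cohesin genes had a median change of -0.10, with 0 called. At an unadjusted p under 0.05, 1 was lower, Pds5b (-0.34), against the same 6.9% of all genes.

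Which members passed the threshold changed with any 1 animal left out, and each such fit also had fewer animals. Without each animal in turn, between 0 and 3 members were called, with 0 without MCT4KO 3 or WT 3, 1 (Mki67) without WT 2 or WT 4, and 2 without MCT4KO 1 or MCT4KO 2. Over the same fits the median change of the 53 members stayed between -0.56 and -0.45. Mki67 had an adjusted p of 0.05495 without MCT4KO 3 and 0.0512 without WT 3. Nek2 missed the threshold without any 1 of the animals. Over all alternatives run Mki67 passed in 14 of 17, Stmn1 in 10 of 17, Pbk in 8 of 17 and Nek2 in 4 of 16. Calls were also gained. Ect2 passed in 3 of 17, with genes below the median level left out, with genes at or below the control median on every array left out, and with values raised to that median. Kif20a passed in 1 of 16, where the filter on the control median gave 6 called members of 43 tested, and Tpx2 passed without MCT4KO 2 (adjusted p = 0.0417).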

How the data were processed

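The authors deposited 1 log2 value per feature and array, and the submitters' processing notes name Affymetrix Expression Console 1.4.1. How signals were corrected, normalized and combined was not given in the sources used here, and the log2 scale is read from the values. The values were used as deposited. Of 28846 features, 19572 carried 1 gene symbol, 0 several, and the feature with the highest mean stood for each of 19505 genes. Precision is limited by the number of arrays, with a median SE of 0.167 on the log2 scale. No arrays were identical.

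The fit used lmFit and eBayes of limma 3.58.1 in R 4.3.3 over all genes (two-sided), MCT4KO against WT, without covariates. On simulated data the fit recovered 91.9%, 54% and 2.5% of log2 changes of size 2, 1 and 0.5, with 4.11% false calls. Not passing the test thus says little about a change of size 0.5. Slc16a3 also had an exact permutation test. Sets of genes are described by counts and medians, without a test. Every member was named, with values by animal for the called members, the 20 smallest p, the 4 highest means and the increases. For the other cell cycle lists the called genes and up to 4 with the smallest p were named. The members and lists were chosen with earlier results of these data known. Promoter sequences are RefSeq's for GRCm38.p6. Members and list genes absent from the annotation were not analysed here. Equal animal numbers did not deviate together (correlations of -0.127, 0.0157 and 0.0499), so they were not treated as pairs. Alternatives covered normalization, dim genes, feature choice, variance model, replicate block and left-out animals.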

Additional observations from a re-analysis of the deposited data

Results flagged for a closer look

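In 2 of the 53 members 1 WT animal lay far from the other WT animals, by Dixon's test for groups of 4. Kif4 read 6.69 in WT 2, against 6.16 to 6.24 in the other WT animals. Hmmr read 5.71 in WT 1, against 6.25 to 6.28 in the other WT animals. Chance gives such a value in about 1 in 20 groups, and the 3 MCT4KO animals are too few for this test. Neither gene was called.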

How the results depend on the processing

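The direction of Slc16a3 and its call held in all alternatives run, and the 4 called members kept their direction in each alternative that tested them. Counts moved more. Without each animal in turn, all genes called ranged from 15 to 64, members called from 0 to 3, members lower at an unadjusted p under 0.05 from 23 to 28, the members' median from -0.56 to -0.45 and called genes of the other cell cycle lists from 0 to 2. Without WT 1 and WT 2 together these were 16 genes, 1 member, a median of -0.58 and 1 gene of the other lists. With the replicate block, which leaves WT 4 without weight, limma called 6 genes, 0 members (26 lower at an unadjusted p under 0.05) and 0 genes of the other lists. Quantile normalization left 2 members and 1 gene of the other lists. Leaving out genes below the median level kept 21 members, 12 of them lower at an unadjusted p under 0.05, and 1 gene of the other lists was called. Raising values to the control median gave 16 such members of 43 tested, a median of -0.29 over all 53 and 1 gene of the other lists. Leaving out genes at or below the control median on every array gave a median of -0.61 over 43 members, a subset that favours genes high in 1 group. Uncalled changes near 0 turned sign: Aurkb to -0.0054 and Birc5 to -0.0071 under quantile normalization, Ska1 to 0.085 with the replicate block, and Aurkb to -0.063 without WT 1 and WT 2. Without each animal in turn Aurkb ranged from -0.030 to 0.049, Birc5 from -0.050 to 0.11, Ska1 from -0.15 to 0.085, Ttk from -0.16 to 0.054, Kif22 from -0.087 to 0.14 and Melk from -0.67 to 0.025. The cause was not tested, except that fewer animals or genes enter some fits. Dim signal limits the sizes, since 18 of 53 members read above the control median on all 7 arrays.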
